A study of Mus musculus with 3 samples.

Results

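Id1, Id2, Id3, Hes1, Hes6, Bhlhe40 and Smad6 are 7 genes of regulators that act on differentiation, most of them repressors or inhibitors, and their transcripts were followed in mouse embryonic stem cells in which translation had been blocked. They were taken by symbol from the gene list of the deposited matrices, with no filter on their values, and all 7 of 7 were found among 32285 listed genes. The set was chosen with earlier results of these data known. All cells were of the E14 line, which derives from a 129/Ola mouse embryo, and were cultured with serum and leukemia inhibitory factor. They were detached, frozen and thawed before droplet capture (10x Genomics, 3′ ends). The control library came from cells given only ethanol for 6 h. The other libraries came from cells given 250 µg/mL cycloheximide in 0.007% ethanol for 3 h or for 6 h, and exposure in every group began 24 h after seeding. Cycloheximide blocks the elongation step of translation. No genotype differed between groups. Each group had 1 library, so no test between conditions was possible, no ethanol control matched the duration of the 3 h exposure, and every interval below covers counting error only.

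Id proteins are helix-loop-helix proteins that lack a DNA-binding region. They bind the E proteins, such as Tcf3 and Tcf4, and keep them from pairing with the tissue-specific factors that drive differentiation. In embryonic stem cells grown with serum, Id genes are known as direct targets of bone morphogenetic protein (BMP) signalling through Smad1 and Smad5. Hes1 is a DNA-binding repressor that responds to Notch and other signals, represses its own promoter and has a short-lived messenger RNA and protein. Hes6 is a relative that opposes Hes1 and is known to promote neuronal differentiation, Bhlhe40 is a repressor best known from the circadian clock and from hypoxia, and Smad6 is an inhibitor that BMP signalling itself induces.

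Cells were taken as barcodes with at least 15000 unique molecular identifiers (UMIs, the tags that mark single captured molecules) of which 1 to 20% came from mitochondrial genes. This left 2187 cells of the control library, 1739 of the 3 h library and 2554 of the 6 h library, with medians of 43160, 51726 and 46200 UMIs. They held 111447486, 106842407 and 140321458 UMIs. The 8 stem cell markers checked were present in all libraries. Pou5f1, the core pluripotency factor, had a UMI in at least 99.6% of cells after each cell was thinned at random to 15000 UMIs. The lowest shares among the 8 were those of Esrrb, at 59.1% in the control, 72.2% after 3 h and 55.7% after 6 h. Of 16 markers of fibroblasts, endoderm, trophoblast, nerve and mesoderm, none reached a mean of 10 CPM (the UMIs of a gene scaled to a common library total), the fibroblast collagen Col3a1 had no UMI in any library, and the summed level of the list was 26.3 CPM in the control, 29.7 after 3 h and 24.7 after 6 h. Cells with at least 3 UMIs of these markers, counted without thinning, made up 14.1%, 20.9% and 15.9% of the libraries. Deeper cells pass such a fixed cut more readily and the 3 h library was the deepest, so no order is read from these shares. Between 1 and 3 barcodes were shared by any pair of libraries.

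Sequence from promoter windows is shown for 3 of the genes that were higher after cycloheximide, because Id2, Id3 and Smad6 are known BMP targets. The RefSeq promoter table (GRCm38.p6) held 4 of the 7 members, namely Id2, Id3, Hes6 and Smad6. Windows covered the 250 bases before the RefSeq start site and were searched on both strands for GGCGCC, a GC-rich sequence that Smad1 and Smad5 bind, and for GTCT, the core that Smad4 binds, neither of which overlapped the other. Capitals mark matches to either, and AGAC is GTCT read on the other strand. Only bases outside the exons of GENCODE M21 are given for Id2 (chr12:25096254-25096342, minus strand) and Smad6 (chr9:64022060-64022309, minus strand). The RefSeq start site used for Id2 lies inside the annotated gene (25093799 to 25097140). The Id2 bases are therefore within that gene and not upstream of it. For Id3 the window lies in an annotated exon and 30 bases around a match are given (chr4:136143643-136143672, plus strand).
Id2: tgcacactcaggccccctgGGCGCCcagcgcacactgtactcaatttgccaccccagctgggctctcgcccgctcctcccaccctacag
Id3: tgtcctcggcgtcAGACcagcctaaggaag
Smad6: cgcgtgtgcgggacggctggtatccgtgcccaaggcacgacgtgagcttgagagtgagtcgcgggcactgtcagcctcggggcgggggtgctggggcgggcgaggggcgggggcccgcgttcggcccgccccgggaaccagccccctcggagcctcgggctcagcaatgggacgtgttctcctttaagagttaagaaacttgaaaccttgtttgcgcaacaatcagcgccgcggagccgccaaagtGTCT
GGCGCC occurred at position -231 of Id2, counted back from the RefSeq start site and so inside the annotated gene. It occurred in 9.59% of 32851 promoter windows of this length. It was not in the windows of Id3, Smad6 or Hes6. GTCT occurred once in Id2, in the exonic bases not shown, and once in Smad6, at 2 places in Id3 and at 2 places in each of the Hes6 windows, and in 82.9% of all windows. The repressor site CACNAG, known from Hes1 targets, and the TATAAA box were searched too. Among these members they were found only in a Hes6 window, against 36.7% and 12.4% of all windows.

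Transcripts of Id2 and Id3 were 4.97-fold and 6.82-fold higher after 3 h than in the control, whereas those of Id1 were 1.28-fold higher. After 6 h Id2 was still 5.09-fold and Id3 4.0-fold above the control, and Id1 was 1.05-fold above it. Hes1 went the other way, 1.65-fold lower after 3 h and 1.70-fold lower after 6 h. Smad6 was 1.77-fold higher after 3 h and 2.59-fold higher after 6 h, and Hes6 and Bhlhe40 differed by at most 1.3-fold against the control.

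Id1 (ENSMUSG00000042745, chromosome 2, 152736251 to 152737410, plus strand) had 242 CPM in the control (95% exact Poisson interval 239 to 245), 310 CPM after 3 h (307 to 314) and 254 CPM after 6 h (251 to 256). The intervals of the 3 libraries did not overlap, and the 3 h library was highest. Its log2 ratio to the control was 0.36 after 3 h and 0.07 after 6 h, and with TMM factors (trimmed mean of M-values, which scale libraries on the bulk of genes) in place of CPM the 6 h ratio was -0.22. The side of the control on which Id1 lay after 6 h thus depended on the scaling.

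Id2 (ENSMUSG00000020644, chromosome 12, 25093799 to 25097140, minus strand) had 32.2 CPM in the control (31.2 to 33.3), 160 CPM after 3 h (158 to 163) and 164 CPM after 6 h (162 to 166). Both treated libraries lay far above the control and close to each other. Its log2 ratio was 2.31 after 3 h (exact conditional binomial interval 2.26 to 2.37) and 2.35 after 6 h (2.30 to 2.40). Between 6 h and 3 h it was 0.03, and it was -0.08 with TMM factors and -0.13 by mean UMIs per cell, so no order of the treated libraries is given.

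Id3 (ENSMUSG00000007872, chromosome 4, 136143497 to 136145755, plus strand) had 46.1 CPM in the control (44.8 to 47.4), 314 CPM after 3 h (311 to 318) and 185 CPM after 6 h (182 to 187). Its 3 h level was the highest and its 6 h level lay between that and the control. The log2 ratio was 2.77 after 3 h (2.73 to 2.81), 2.00 after 6 h and -0.77 between 6 h and 3 h. Id3 and Id2 thus had similar ratios to the control after 6 h but differed in how 6 h compared with 3 h.

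Hes1 (ENSMUSG00000022528, chromosome 16, 30064384 to 30067796, plus strand) had 52.9 CPM in the control (51.6 to 54.3), 32.1 CPM after 3 h (31.0 to 33.2) and 31.2 CPM after 6 h (30.3 to 32.1). The control was highest, and the intervals of the treated libraries overlapped. The log2 ratio was -0.72 after 3 h and -0.76 after 6 h, and the latter was -1.05 with TMM factors.

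Hes6 (ENSMUSG00000067071, chromosome 1, 91411483 to 91414038, minus strand) had 20.1 CPM in the control, 19.8 CPM after 3 h and 25.5 CPM after 6 h. The control and 3 h intervals overlapped, and the 6 h library was highest. Its log2 ratio after 6 h was 0.34, which became 0.06 with TMM factors. Its 3 h ratio of -0.02 became 0.25 by mean UMIs per cell.

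Smad6 (ENSMUSG00000036867, chromosome 9, 63953076 to 64022059, minus strand) had 198 UMIs in the control, 336 after 3 h and 648 after 6 h, or 1.78 CPM (1.54 to 2.04), 3.14 CPM (2.82 to 3.50) and 4.62 CPM (4.27 to 4.99). Its intervals did not overlap, and its level was in the order control, 3 h, 6 h. The log2 ratio was 0.82 after 3 h (0.57 to 1.08) and 1.38 after 6 h (1.15 to 1.62).

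Bhlhe40 (ENSMUSG00000030103, chromosome 6, 108660629 to 108666925, plus strand) had 4.03 CPM in the control (3.66 to 4.42), 5.22 CPM after 3 h (4.80 to 5.67) and 4.01 CPM after 6 h (3.68 to 4.35). The 3 h library was highest and the other intervals overlapped. An antisense gene, 0610040F04Rik, overlaps it in the annotation, and how such reads were counted is not given in the sources used here. The other 6 members overlap no annotated gene.

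**Figure D1:**
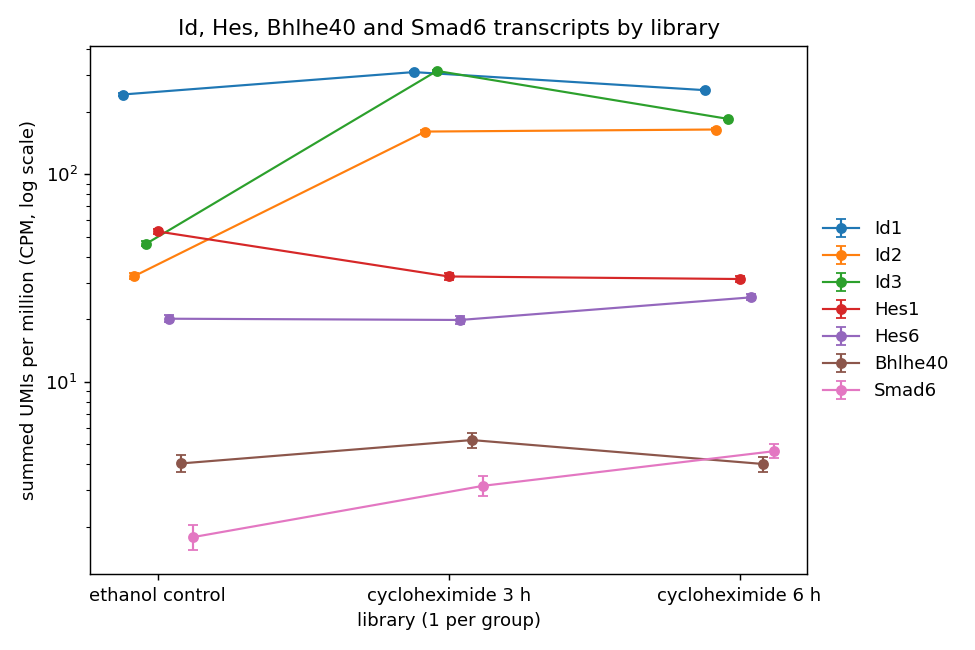
Summed CPM (log axis) of the 7 members in the ethanol control and in cells given cycloheximide for 3 h or 6 h, with 95% exact Poisson intervals as bars. Id2 and Id3 stand between 160 and 314 CPM in the treated libraries against 32.2 and 46.1 CPM in the control, Hes1 is lower in both treated libraries and Id1 stays between 242 and 310 CPM.

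A change of at least 2-fold was used to count members, against the same count over the 7608 genes whose level averaged 10 CPM or more across the libraries. After 3 h, Id2 and Id3 (2 of 7 members) were at least 2-fold above the control, against 4.32% of all genes. None of the 7 was at least 2-fold lower, against 0.513% of all genes. After 6 h, Id2, Id3 and Smad6 (3 of 7) were at least 2-fold higher, against 8.65% of the 7608 genes, which do not include Smad6. None was at least 2-fold lower, against 2.41%. With TMM factors these shares of all genes after 6 h were 4.68% and 5.19%, the same 3 members were higher, and Hes1 was counted as lower. Between 6 h and 3 h no member differed by at least 2-fold, against 0.145% of genes higher and 0.657% lower. Smad6 and Bhlhe40 lay under the 10 CPM floor, and the other 5 members lay above it in every library. Of these 5, 2 (Id2 and Id3) were at least 2-fold higher at both times, which is the count that matches the shares given. Shares of all genes without a floor are larger and are given in the last section.

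After 3 h only 16 of the 7608 genes had a higher ratio to the control than Id3, and 38 had a higher ratio than Id2. After 6 h these numbers were 88 for Id3 and 55 for Id2. Hes1 was lower than most genes, with 97 genes below it after 3 h and 348 after 6 h. Id1 had 2056 genes above it after 3 h and 4401 after 6 h. The comparisons after 3 h and 6 h share the control library. The median ratio over all genes was 0.11 after 3 h and 0.17 after 6 h. TMM factors shifted every ratio by -0.17 and -0.29, and mean UMIs per cell by 0.27 and 0.11. Over the 7 members the median was 0.37 after 3 h and 0.34 after 6 h.

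**Figure D2:**
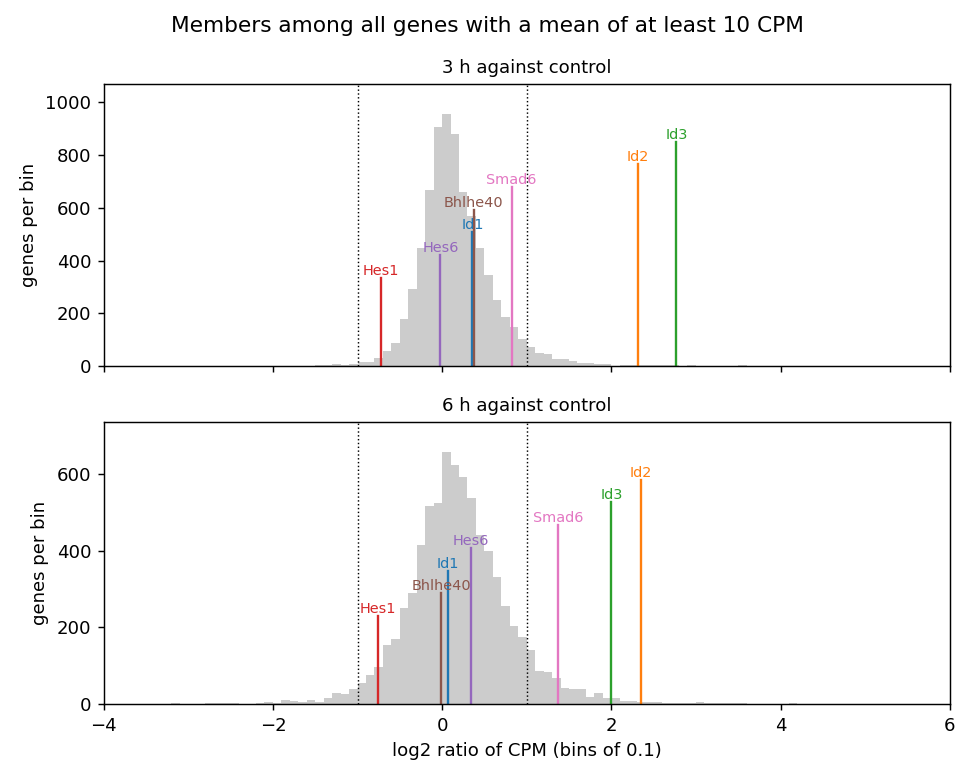
Number of genes per bin of 0.1 in the log2 ratio of CPM after 3 h (top) and 6 h (bottom) against the control, for 7608 genes, with each member drawn as a labelled line whose height has no meaning. Dotted lines mark 2-fold. Id2 and Id3 lie at 2.31 and 2.77 after 3 h, at the upper end of the genes, and Hes1 lies at -0.72.

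The levels were also read within each library in cells at or below its median depth and in cells above it. Id3 after 3 h had a log2 ratio of 2.99 in the shallower cells and 2.67 in the deeper ones, and Id2 had 2.52 and 2.22. Hes1 had -0.61 and -0.77. For Id1 after 6 h the ratio was 0.39 in the shallower cells and -0.09 in the deeper ones, so its sign differed with depth as well as with the scaling. Barcodes with 10 to 100 UMIs, which hold RNA free in the droplets, showed the same order of libraries for Id3. Free RNA had 23.3, 133 and 125 CPM of Id2 and 34.5, 230 and 142 CPM of Id3 in the control, 3 h and 6 h libraries. Of Smad6 it had 1.39, 4.24 and 4.59 CPM. That was above the 3.14 CPM of the cells after 3 h and close to their 4.62 CPM after 6 h. With 10% of each library's UMIs subtracted in the proportions of free RNA, the same 2 members after 3 h and 3 members after 6 h were at least 2-fold higher. The part of free RNA in the results was not tested beyond this.

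The number of cells with Id transcripts was compared after thinning every cell to 15000 UMIs, which left no cell out. Id2 had a UMI in 29.2% of control cells (exact Clopper-Pearson interval 27.3 to 31.1), 67.4% after 3 h (65.1 to 69.6) and 70.3% after 6 h (68.5 to 72.1). Unthinned, these shares were 56.0%, 84.8% and 84.1%. Id3 had a UMI in 39.0% (37.0 to 41.1), 77.3% (75.2 to 79.2) and 59.8% (57.9 to 61.7) of thinned cells, and in 65.3%, 88.4% and 75.3% of unthinned cells. The shares of Id2 and Id3 kept the order of their levels between control and treated libraries. No cell type without these genes was present to give a background. If 10% of a cell's UMIs were free RNA, that RNA alone would put a UMI of Id2 in 3.44%, 18.1% and 17.1% of cells, and of Id3 in 5.04%, 29.1% and 19.2%. The true free part was not measured.

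Id1 behaved differently. Its share of cells with a UMI was 85.6% in the control (84.1 to 87.0), 75% after 3 h (72.9 to 77.1) and 70.0% after 6 h (68.1 to 71.7), while its CPM was higher after 3 h than in the control. Unthinned, the shares were 95.9%, 89.3% and 82.7%, and free RNA at 10% would give 24.1%, 31.6% and 29.3%. Between the control and 3 h share and level went opposite ways, while both were lower after 6 h than after 3 h. Whether they did so between the control and 6 h depended on the scaling of the level. No order of the libraries was thus read from the share. Cells with 10 or more Id1 UMIs after thinning made up 7.04% of the control, 17.8% after 3 h and 12.8% after 6 h.

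Hes1 had a UMI in 49.7% of control cells (47.6 to 51.9), 36.5% after 3 h (34.2 to 38.8) and 35.5% after 6 h (33.7 to 37.4), the same order as its level, and unthinned in 80.1%, 70.7% and 68.8%. Free RNA at 10% would give 6.88%, 4.31% and 4.71%. Hes6 had a UMI in 24.3%, 25.3% and 31.0% of thinned cells and in 55.9%, 62.6% and 67.5% of unthinned ones, against 2.84%, 2.91% and 3.50% from free RNA at 10%. Smad6 was seen in 2.56%, 5.69% and 6.34% of thinned cells and 8.14%, 15.3% and 20.5% of unthinned cells. Bhlhe40 was seen in 5.67%, 7.48% and 5.36%, and unthinned in 17.4%, 22.9% and 16.6%. Free RNA at 10% would give at most 0.724% for either. At under 0.1 UMIs per thinned cell, neither gene allows its cell-to-cell variation to be described.

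**Figure D3:**
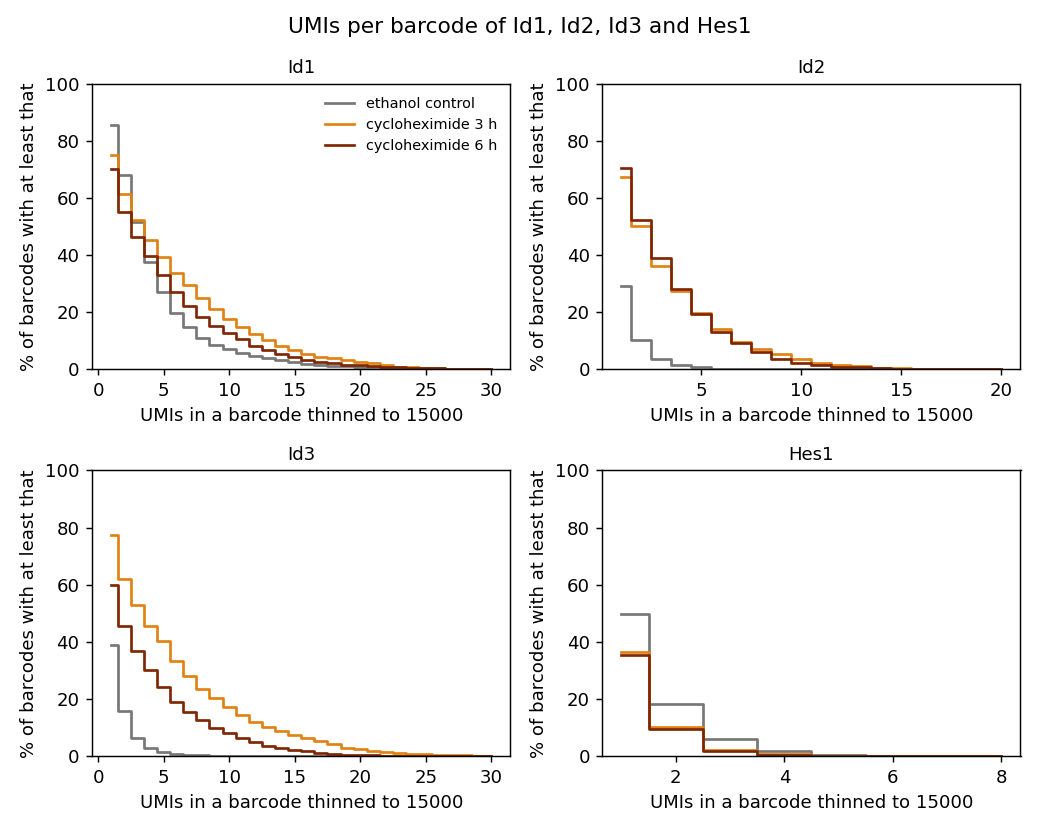
Share of cells (y axis, in percent) with at least the number of UMIs on the x axis, for Id1, Id2, Id3 and Hes1 after thinning each cell to 15000 UMIs, in the 3 libraries. For Id2 and Id3 the treated curves lie above the control throughout the range with many cells, for Hes1 they lie below it, and for Id1 they start below it, at 75% and 70.0% against 85.6%, and cross it.

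Cell-to-cell variation was described by the excess squared CV (coefficient of variation). It is obtained by taking the mean off the variance and dividing by the squared mean, and it is 0 when only random sampling of molecules varies. Genes at a mean level within 1.5-fold of the member in the same library served as a yardstick. Id1 had an excess of 0.897 in the control against a median of 0.0430 over 549 such genes, and 0.182% of them exceeded it. After 3 h and 6 h Id1 had 1.08 and 1.28, against medians of 0.0388 and 0.0409. Id3 had 1.66, 1.10 and 1.57, against medians of 0.0870, 0.0388 and 0.0475, and after 3 h none of 430 like genes exceeded it. Id2 had 2.05, 1.02 and 0.824, against 0.104, 0.0494 and 0.0510. The 3 Id genes were thus among the most unevenly distributed transcripts of their level in every library, the untreated one included, and at most 1.10% of like genes exceeded any of them.

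Hes1 had an excess of 0.343, 0.425 and 0.367, above the medians of 0.0839, 0.107 and 0.109, and between 5.15% and 8.42% of like genes exceeded it. Hes6 had 0.356, 0.211 and 0.242 against 0.134, 0.137 and 0.122. At a thinning depth of 10000 UMIs the control value of Hes6 was 9.0e-04, so its variation is not described further.

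**Figure D4:**
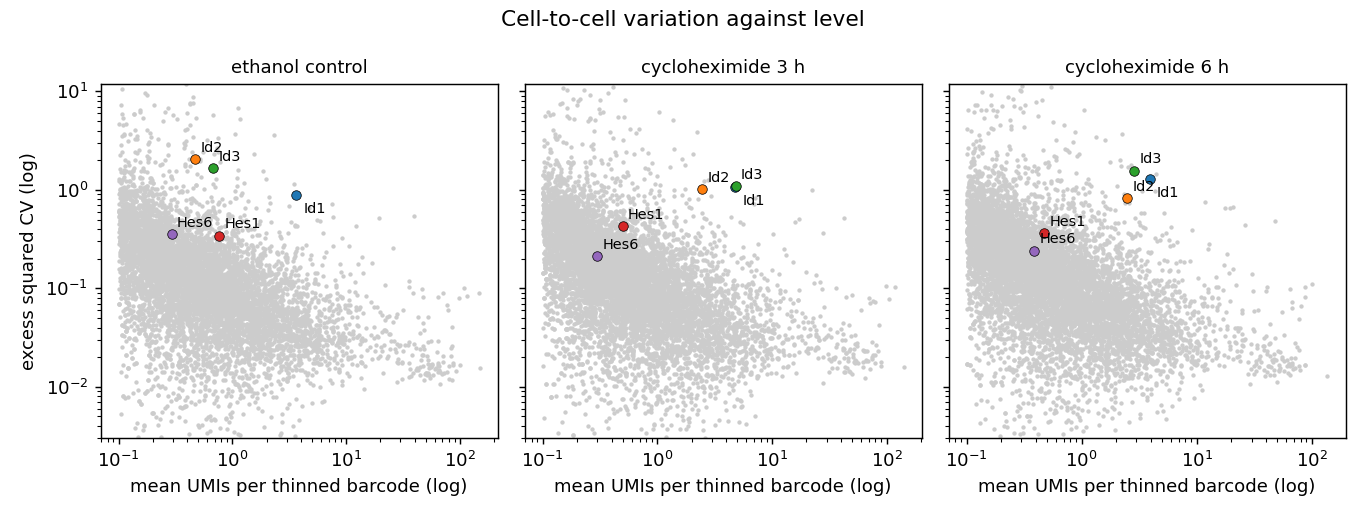
Excess squared CV (log axis) against mean UMIs per thinned cell (log axis) for genes with at least 0.1 UMIs per cell in each library, as grey points, with Id1, Id2, Id3, Hes1 and Hes6 labelled. Values outside 0.003 to 12 (3175 of 25758 points) are not drawn. Id1, Id2 and Id3 lie at the upper edge in all 3 libraries, with Id1 at 0.897 in the control and 1.28 after 6 h.

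Id1, Id2 and Id3 transcripts tended to be higher in the same cells. Over the cells of 1 library, which share that library, the Pearson correlation of log2 thinned counts plus 1 was 0.30 for Id1 and Id3 in the control, 0.76 after 3 h and 0.71 after 6 h. For Id1 and Id2 it was 0.26, 0.68 and 0.66, and for Id2 and Id3 it was 0.23, 0.64 and 0.59. Id2 and Id3 had few UMIs per cell in the control, and low counts weaken a correlation. When the sampling part of each variance was taken off the thinned counts, the correlation of Id1 and Id3 was 0.72 in the control, 0.85 after 3 h and 0.78 after 6 h. That of Id1 and Id2 was 0.57, 0.82 and 0.75, and that of Id2 and Id3 was 0.66, 0.77 and 0.71. The gap between control and treated libraries was thus smaller on this scale.

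All 3 Id transcripts were present together in 13.9% of thinned control cells (12.5 to 15.4), 55.5% after 3 h (53.2 to 57.9) and 48.5% after 6 h (46.6 to 50.5). The product of the separate shares was 9.75%, 39.1% and 29.4%. Cells with at least 20 UMIs summed over the 3 genes made up 1.92% of the control (1.39 to 2.59), 23.6% after 3 h (21.7 to 25.7) and 15.2% after 6 h (13.8 to 16.6). Cells with no UMI of the 3 genes at this depth made up 8.55% (7.41 to 9.80), 10.0% (8.64 to 11.5) and 15.7% (14.3 to 17.2), which does not show that they lacked the transcripts. The part of free RNA in these summed and joint shares was not tested.

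Cells were then read by their Id1 level. In the control, mean Id3 was 0.394 UMIs in cells with no Id1 UMI and 2.30 in cells with 10 or more Id1 UMIs. After 3 h these means were 0.853 and 11.7, and after 6 h they were 0.322 and 7.90. Among cells with no Id1 UMI after 6 h, Id3 was thus not above the control cells with no Id1 UMI, while Id2 was, at 0.621 against 0.229. Hes1 also followed Id1, at 0.581 and 0.857 in the control, 0.373 and 0.718 after 3 h, and 0.352 and 0.788 after 6 h. In every Id1 class Hes1 was lower in the treated libraries than in the control. The median depth of the cells with 10 or more Id1 UMIs was 40456, 46165 and 39773 UMIs, against 39064, 49519 and 44350 in those without, and correlations of Id1 with total UMIs were at most 0.069.

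**Figure D5:**
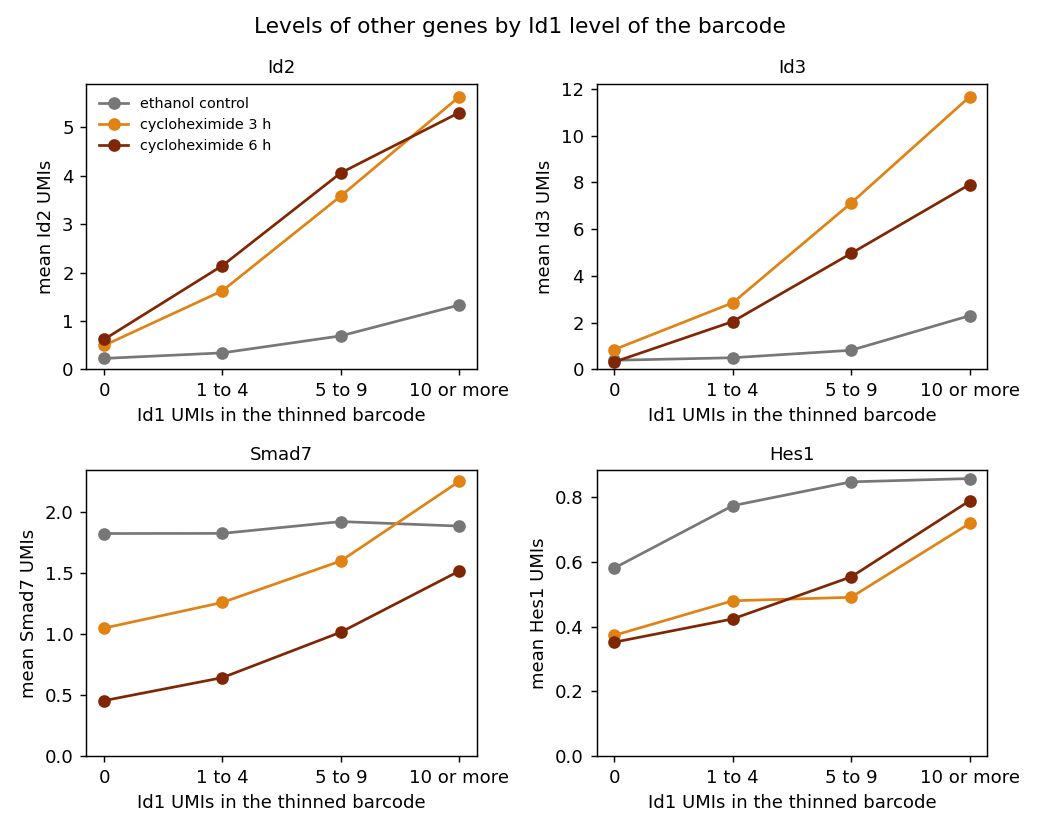
Mean thinned UMIs of Id2, Id3, the inhibitory Smad gene Smad7 and Hes1 in cells grouped by their Id1 UMIs, for the 3 libraries. Id3 climbs with Id1 from 0.853 to 11.7 after 3 h, and Smad7 is flat in the control (1.82 to 1.88 between the end classes) but goes from 0.455 to 1.52 after 6 h.

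The genes most like Id1 over control cells, among 3696 genes averaging 0.5 UMIs or more in thinned cells, were Id3 (r = 0.30), Cdkn1c, Actb, Actg1 and Tsc22d1, the latter 4 at 0.13 to 0.14. After 3 h and 6 h Cdkn1c, a cell cycle inhibitor, had 0.26 and 0.29 and Tsc22d1 had -0.03 and 0.02. For Id3 they were Id1 (0.30), Dynll1, Actb, Nip7 and Actg1, at 0.10 to 0.11 after Id1. For Hes1 they were Cks2, Nusap1, Cenpa, Incenp and Rtn4, at 0.09 to 0.12, the first 4 of which act in mitosis. These 5 had 0.02 to 0.13 with Hes1 after 3 h and -0.03 to 0.06 after 6 h. Id2 averaged 0.466 UMIs in thinned control cells, under the floor of 0.5, and was thus left out of these control rankings. Its correlation with Id1 there was 0.26, above that of Cdkn1c. The ranked correlations are weak, apart from that of Id1 and Id3, and are given as a description. A ranking in the treated libraries was added after the values had been seen. It took genes averaging 0.5 UMIs or more in the treated library itself, 4022 after 3 h and 4106 after 6 h. Id2, Gadd45g and Gadd45b passed this only in the treated libraries, so the control and treated rankings cannot be compared for them. After 3 h the genes most like Id1 were Id3, Id2, Skil (r = 0.38), Gadd45g (0.32) and Cdkn1c, and after 6 h they were Id3, Id2, Gadd45g (0.47), Gadd45b (0.35) and Skil (0.34). Skil encodes a repressor of Smad signalling, and the Gadd45 genes encode stress-response proteins. The lowest correlations with Id1 after 6 h were those of the replication histone genes Hist1h2ap (-0.21) and Hist1h2ae (-0.20), which had -0.15 in the control and -0.07 after 3 h. For Hes1 the highest were Ube2c (0.17) and Cenpa (0.13) after 3 h, and Gadd45g (0.20), Id1 (0.18) and Id3 (0.17) after 6 h. In the control Skil had correlations with Id1 of 0.10, Gadd45g 0.02 and Gadd45b 0.03. Gadd45g had only 1.09 CPM there and Gadd45b 12.7 CPM, and low counts weaken a correlation. Gadd45g had 87.3 CPM after 3 h and 292 CPM after 6 h. Smad7 had correlations with Id1 of 0.02, 0.24 and 0.32 in the control, 3 h and 6 h libraries. With the summed markers of other cell types, Id1, Id2 and Id3 had correlations of 0.03 to 0.14. Without the cells that held such markers, the correlation of Id1 and Id3 was 0.29, 0.76 and 0.72. The ratios, shares of cells and cell-to-cell variation of the members, and some other correlations between them, were also recomputed without those cells. The part of those cells in the remaining results was not tested.

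Relatives of the members were mostly rare. Id4, the remaining Id gene, had 1.65 CPM in the control, 7.70 CPM after 3 h and 6.93 CPM after 6 h, log2 ratios of 2.22 and 2.07. Its level in free RNA was 1.67, 9.68 and 9.18 CPM, above that in the treated cells. Smad7, which like Smad6 inhibits Smad signalling, went the other way from Smad6, with 125, 95.7 and 53.0 CPM and a log2 ratio of -1.23 after 6 h. It was the only 1 of 10 relatives with a mean of at least 10 CPM.

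The genes of the E proteins, which Id proteins bind, went in opposite directions. Tcf3 had 53.0, 39.5 and 35.7 CPM, a log2 ratio of -0.57 after 6 h, and Tcf4 had 42.7, 56.9 and 65.1 CPM, a log2 ratio of 0.61. All 3 E protein genes lay above the floor and none differed from the control by 2-fold. Among genes of Groucho corepressors, which Hes proteins recruit, 3 of 6 lay above the floor and none of them changed by 2-fold. The most abundant were Tle5, with 148, 133 and 129 CPM, and Tle4, with 73.8, 67.9 and 51.1 CPM. Tle1, under the floor, had 12.7, 7.45 and 5.61 CPM.

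Among BMP ligands and antagonists, 2 of 15 lay above the floor and neither differed by 2-fold in CPM. Bmp4, the ligand, had 101, 68.8 and 55.7 CPM, and Gdf3, a member of the same family, had 142, 213 and 279.7 CPM. After 6 h Bmp4 was at least 2-fold lower with TMM factors (log2 ratio -1.15), and Gdf3 at least 2-fold higher by mean UMIs per cell (1.09). Of 15 receptors, Smads and their regulators, 9 lay above the floor, with medians of 0.22 after 3 h and 0.17 after 6 h against 0.11 and 0.17 over all genes. Bambi, a decoy receptor, was 1 of 9 at least 2-fold higher at both times, with 11.3, 29.3 and 40.0 CPM. Over all genes above the floor 4.32% were that much higher after 3 h and 8.65% after 6 h, and 2.41% were 2-fold lower after 6 h. Ski, a corepressor of Smads, was at least 2-fold lower after 6 h, with 41.2, 32.4 and 20.1 CPM, but not by mean UMIs per cell (log2 ratio -0.93). The activin receptor Acvr2a, under the floor, had 3.67, 7.90 and 10.3 CPM. Skil had 37.5, 65.7 and 57.5 CPM and Smad1 had 29.3, 46.6 and 42.3 CPM. By mean UMIs per cell Skil too was at least 2-fold higher after 3 h (log2 ratio 1.08). Of 11 BMP response genes other than the members, 4 lay above the floor, with 1 at least 2-fold higher (Bambi) and 1 lower (Smad7) after 6 h. Of those under the floor, Id4, Msx1, Msx2 and Atoh8 were at least 2-fold higher in CPM after 6 h, against 28.6% of all genes without a floor. Msx1 had a log2 ratio of 1.10, and the TMM shift of -0.29 takes it under 2-fold. Dlx3 was at least 2-fold lower, against 7.0% of all genes without a floor, and Gata2 and Bmpr2 were neither. Msx2 had 109, 606 and 1058 UMIs and Atoh8 only 3, 3 and 13. The interval of the 6 h log2 ratio of Atoh8 ran from -0.08 to 4.23. The other shares without a floor are given in the last section. Tbx3 had 98.6, 155 and 91.0 CPM.

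No Notch ligand gene of 5 reached the floor, and their summed level was 18.7, 21.8 and 26.4 CPM. Dll3 had 8.26, 6.73 and 9.39 CPM and Jag1 had 3.85, 6.76 and 6.77 CPM. Dll1, named after its values had been seen, had 46, 348 and 760 UMIs, or 0.413, 3.26 and 5.42 CPM, which is 7.82-fold and 13-fold above the control. Its level in free RNA was 1.11, 6.35 and 6.38 CPM, above that in the cells. Of 21 genes of Notch receptors, cleavage and nuclear factors, 10 lay above the floor, with medians of 0.19 after 3 h and 0.06 after 6 h. Notch1, the receptor, was 1 of 10 at least 2-fold lower after 6 h, against 2.41% of all genes above the floor. It had 15.5, 9.76 and 6.11 CPM. Psen2, a part of the cleaving enzyme, was 1 of 10 at least 2-fold higher after 6 h, against 8.65%. It had 5.55, 10.0 and 15.9 CPM. Counts of 1 in 10 are too small to set this list apart from all genes. Rbpj, the DNA-binding partner of Notch, had 189, 237 and 171 CPM, and Psenen, another part of that enzyme, had 82.1, 98.4 and 113 CPM.

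Of 10 naive pluripotency genes, 8 lay above the floor, and their median log2 ratio was 0.49 after 3 h and -0.21 after 6 h. None of the 8 differed by 2-fold in CPM after 3 h, against 4.32% of all genes higher and 0.513% lower, and 2 were at least 2-fold lower after 6 h, against 2.41%. These were Klf5, with 358, 446 and 165 CPM, and Tfcp2l1, with 80.4, 51.1 and 38.7 CPM. By mean UMIs per cell Tfcp2l1 was no longer 2-fold lower (log2 ratio -0.95). On that scale Klf2 was at least 2-fold higher after 3 h (log2 ratio 1.18), against 9.33% of all genes. Zfp42 had 455, 592 and 239.6 CPM, and with TMM factors it was at least 2-fold lower after 6 h (-1.21). Of 9 formative and primed genes, 3 lay above the floor. Nodal was at least 2-fold higher at both times, against 4.32% and 8.65% of all genes above the floor. It had 31.3, 70.5 and 79.8 CPM (just under 2-fold after 3 h with TMM factors). Lefty1, a Nodal inhibitor, was at least 2-fold lower after 6 h, against 2.41%, with 13.7, 14.4 and 5.72 CPM. Dnmt3b had 50.3, 38.1 and 32.9 CPM, and Pou3f1, under the floor, had 15.5, 5.17 and 5.07 CPM. Over cells, the correlations of Id1 with the 10 naive genes were weak and of both signs. They ran from -0.10 (Klf4) to 0.10 (Klf5) in the control, from -0.16 (Klf4) to 0.06 (Dppa3) after 3 h and from -0.10 (Klf4) to 0.12 (Tbx3) after 6 h.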

How the data were processed

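The authors deposited raw UMI counts per gene and barcode for 3 libraries of E14 cells. The processing was done with Cell Ranger 4.0.0 on the mm10 build, per the submitters' processing notes, and each matrix lists 6794880 barcodes, so that no cells had been called. The annotation release is not given in the sources used here. Gene positions are those of GENCODE M21, also on GRCm38, matched by identifier (32235 of 32285).

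Counts were summed over cells and given as CPM, and log2 ratios used a prior of 0.5 counts. No doublets were removed. Intervals (95%) were exact Poisson, conditional binomial and Clopper-Pearson, and cover counting error only. TMM factors came from edgeR 4.0.16 in R 4.3.3. Other steps used Python 3.11.15, numpy 2.4.6, scipy 1.17.1 and pandas 2.3.3, and were checked on simulated data.

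The members, 12 other gene lists and measures were chosen with earlier results of these data known. Named genes were the members, list genes with at least 10 CPM in a library and a 2-fold change or among the most abundant 2 of their list, and the 5 genes most like Id1, Id3 and Hes1 over control cells, leaving out mitochondrial and ribosomal protein genes. The Id sums, the sampling-corrected correlations, the levels by Id1 class and the ranking in treated libraries were chosen after values had been seen. So were Dll1 and the BMP response genes under the floor.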

Additional observations from a re-analysis of the deposited data

Results flagged for a closer look

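Control barcodes with under 1% mitochondrial UMIs are outside the cells described above. There were 62 of them with at least 15000 UMIs. Their level of Id3 was 69.5 CPM (exact Poisson interval 63.2 to 76.3), above the 46.1 CPM of the control cells. Their level of Hes6 was 26.4 CPM (22.6 to 30.7), above 20.1 CPM. The other members were not higher. Id1 had 232 CPM (219.9 to 244) against 242 CPM, Id2 20.1 CPM (16.8 to 23.9) against 32.2 CPM, Hes1 44.5 CPM (39.5 to 50.01) against 52.9 CPM, and Bhlhe40 1.73 CPM (0.864 to 3.10) against 4.03 CPM. Smad6 had 0 UMIs. The 62 barcodes held 6357765 UMIs in all, a higher number per barcode than the control median of 43160.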

How the results depend on the processing

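No paired analysis was possible because each group had 1 library. The count of members at least 2-fold lower at 6 h was 1 (Hes1) with TMM factors in place of 0. The counts at least 2-fold higher stayed within 1.5 times under every alternative run, and the 3 h count was 3 by mean UMIs per cell, where Smad6 had 1.09. Without a floor on low values, 28.6% of genes were at least 2-fold higher and 7.0% lower at 6 h, and 17.6% and 6.30% at 3 h. Between 6 h and 3 h they were 14.5% and 6.13%. With a floor of 50 CPM the shares were 5.58% and 1.5% at 6 h, 2.76% and 0.272% at 3 h, and 0.0681% and 0.579% between the times. Of the recomputed member ratios 165 stayed in their counting interval and 45 left it, most of them with TMM factors (17) or mean UMIs per cell (17). Shares of cells with a UMI left their interval in 68 recomputations and stayed in 37, and correlations left it in 18 and stayed in 30, most changes coming with another thinning depth or none. The sign at 6 h against the control changed for Bhlhe40 under 4 settings, with values from -0.30 to 0.10. The correlation of Id1 and Id3 at 3 h was 0.72 at a thinning depth of 10000 UMIs and 0.80 at a deeper thinning that leaves out shallower cells, and in the control 0.25 and 0.34. Smad6 and Bhlhe40 are limited by depth.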
